A study of Mus musculus with 14 samples.

Results

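The 10 genes described here are NK and cytotoxic effector genes measured in mouse blood: the granule proteins Gzma, Gzmb, Prf1 and Nkg7, the chemokine Ccl5, the receptors Ncr1, Klrd1 and Klra8, and the transcription factors Eomes and Tbx21. They were chosen by name, through array probes whose RefSeq identifier carries one of these symbols, and 9 of the 10 were bright enough to be tested, among 11481 tested genes in all. The study set out to compare blood cells of mice with different early social experiences during cocaine abstinence. SS mice had met an adverse social environment as juveniles, and SI mice had been isolated at that age. Every mouse of both groups was given cocaine at 5 mg/kg, a dose below threshold, in a place preference test and then went through extinction and withdrawal, with blood drawn 24 hours later, so no group was free of stress or of cocaine. Strain and adult age are not given in the sources used here. Among mice labelled male 4 were SS and 4 SI, and among mice labelled female 4 were SS and 2 SI, each with 1 one-colour Agilent array. The cells were called PBMC but were prepared by lysis of red cells alone, so granulocytes and platelets can be among them.

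Natural killer cells and cytotoxic T cells kill a target by releasing granules: perforin (Prf1) opens the membrane, and granzymes (Gzma, Gzmb), which are serine proteases, enter and start cell death. Nkg7 is a granule membrane protein needed for full granule release, and Ccl5 is a chemokine that both cell types store and secrete. Ncr1 (NKp46) is an activating receptor and the usual marker of mouse NK cells. Klrd1 (CD94) pairs with NKG2 chains to read MHC class I, and Klra8 (Ly49H) is an activating receptor of the Ly49 family. Tbx21 (T-bet) and Eomes are T-box transcription factors that direct NK cell maturation and effector T cells. In RNA from mixed blood cells, fewer cells of a type and less RNA per cell cannot be told apart.

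Several facts of the arrays bear on all values. Each sex label has a slide of its own, so slide and sex label cannot be told apart. Y-linked transcripts go against the labels: Eif2s3y and Ddx3y were detected in 6 of 6 mice labelled female and in 0 of 8 labelled male, and no gene could check the SS and SI labels. Arrays SS labelled female 20 and 21 differed by less than the measurement noise. The typical log2 difference between them (median absolute deviation) was 0.103 over 165 probes printed more than once, against 0.0755 to 0.146 between repeat spots of 1 array and 0.253 for the next closest pair, so they were counted as 1 sample with their mean, which leaves 3 SS samples labelled female. SI arrays sit in columns 1 and 2 of their slides and SS arrays in columns 3 and 4, so column and stress group cannot be told apart either. SI labelled male 4 was the dimmest array, with a median signal of -0.84 relative to the mean of all arrays on the log2 scale. Nothing states that the mice came from separate litters, so p-values measure the spread between these samples. The within-slide tests use a spread shared by all 4 groups. The SE and p of labelled females therefore also carry the spread among labelled males, and the reverse.

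No tested member passed between SS and SI mice, in all mice or on either slide. Over both slides (7 SS and 6 SI samples) 0 of 9 members passed limma's test (lowest adjusted p = 0.248, for Klra8), where 6.9% of the 24013 tested probes did, 0.316% lower and 6.58% higher in SS. At an unadjusted p under 0.05, 1 member (Klra8) was lower and 0 were higher in SS, against 5.2% and 13.5% of all probes. Among labelled males 0 of 9 passed (lowest adjusted p = 0.406), as did 0% of all probes, and 0 members reached an unadjusted p under 0.05, where 3.79% of probes did as lower and 18% as higher. Among labelled females 0 of 9 passed (lowest adjusted p = 0.103, for Prf1), where 0.275% of probes did, 0.129% lower and 0.146% higher. An unadjusted p under 0.05 was reached there by 1 member (Prf1) as lower and by 0 as higher, against 5.85% and 8.88% of probes. The difference between the slides passed for 0 of 9 members (lowest adjusted p = 0.395) and 0.025% of probes, so a difference in effect between the slides is not shown. An unadjusted p under 0.05 was reached above 0 (labelled males minus labelled females) by 1 member (Prf1) and below 0 by 0. The shares of all probes were 9.39% and 2.29%. A count of 0 or 1 among 9 does not set the members apart from all probes. In size, the median log2 difference of the 9 members, SS minus SI, was -0.62 over both slides, -0.14 among labelled males and -1.25 among labelled females. The medians over all tested genes were -0.15, -0.15 and -0.06.

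**Figure D1:**
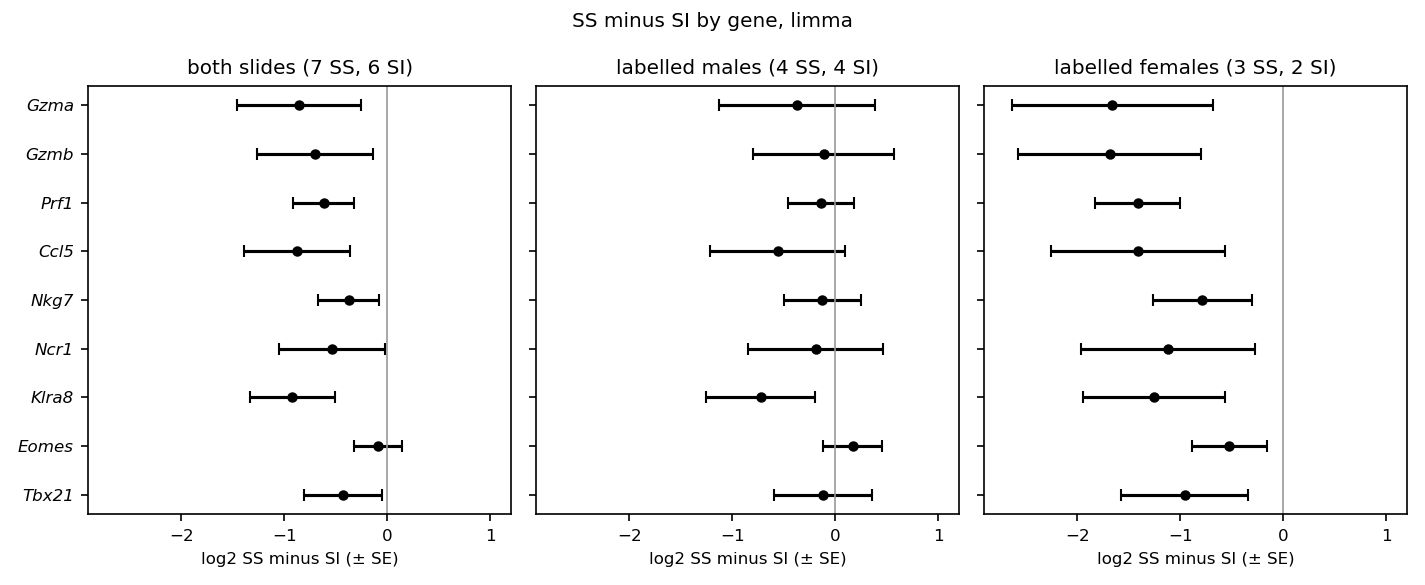
Log2 difference, SS minus SI, of each tested member (horizontal axis) with its standard error from limma, for both slides, for labelled males and for labelled females. All 9 points lie below 0 for labelled females, from -0.52 for Eomes to -1.68 for Gzmb, and between -0.72 and 0.17 for labelled males.

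The single values were compared by whether SS and SI samples overlap, which depends on group size: 3 against 2 samples separate more often than 4 against 4. On the slide of the labelled females every SS sample lay below both SI mice for 9 of 9 members, while 20.6% of all tested probes had that order and 18.5% the opposite one. The members' levels ran together across samples, so they are not 9 separate observations. Among labelled males SS and SI overlapped for 9 of 9 members, where every SS mouse was lower for 1.17% and higher for 8.4% of probes. There the 3 arrays SI labelled male 6, SI labelled male 7 and SS labelled male 3 were above the slide's mean for all 9 members, whereas SI labelled male 4 was so for 2, SI labelled male 5 for 1, SS labelled male 1 for 0, SS labelled male 2 for 1 and SS labelled male 01b for 3.

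**Figure D2:**
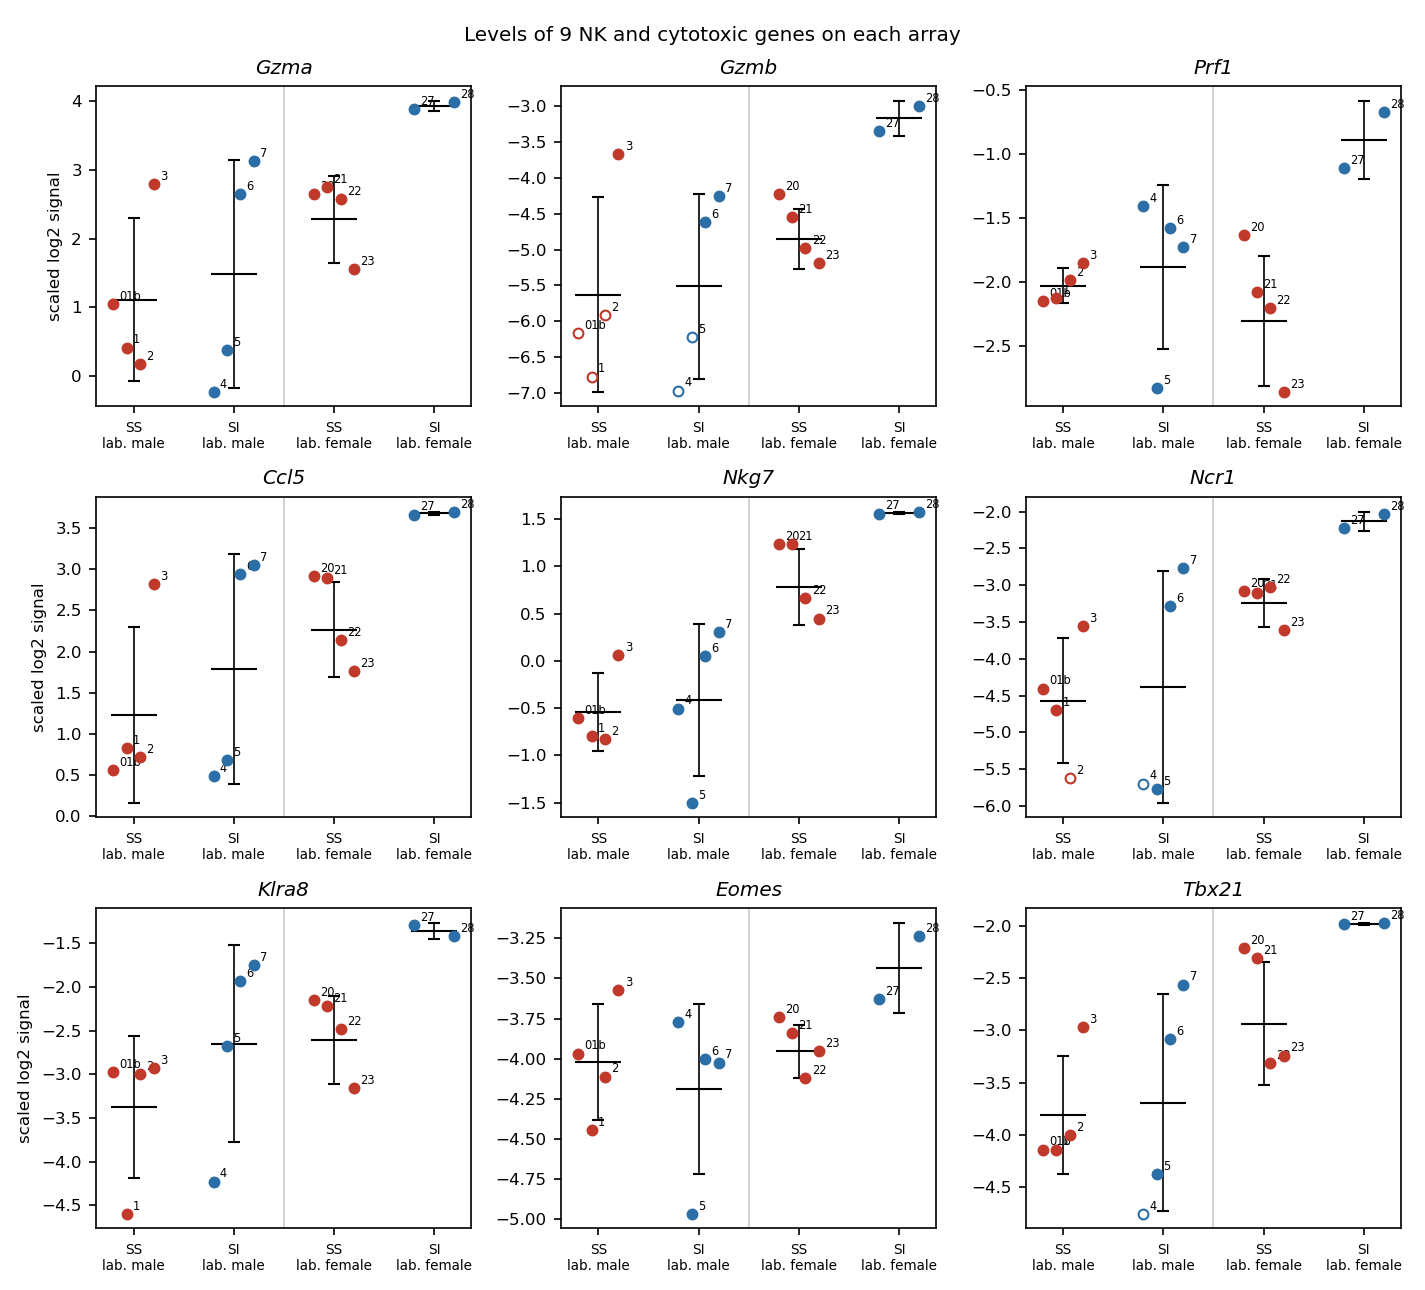
Scaled log2 signal of the 9 tested members on each array (vertical axis), by group, with the mouse number beside each point; filled points are well above background and open points are not. Black bars are the mean ± SD, with SS labelled female 20 and 21 joined as 1 sample. SS 3, SI 6 and SI 7 lie high among the labelled males for most genes, and all SS labelled females lie below both SI labelled females.

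Levels below are log2 processed signal minus the 75th percentile of each array over 14504 probes well above background on every array. A value of 0 is the brightness of that percentile, and levels of different genes cannot be compared because probes differ in strength.

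Gzma, the granzyme that is most abundant in resting NK cells, was well above background on all 14 arrays. It stood at 0.41, 0.17, 2.80 and 1.05 in SS labelled males 1, 2, 3 and 01b, against -0.23, 0.38, 2.65 and 3.14 in SI labelled males 4, 5, 6 and 7. Both groups thus hold high and low mice: the range within SI labelled males was 3.37 on the log2 scale, and the difference of the means was -0.37 ± 0.75 (SE, limma adjusted p = 0.772). In labelled females it stood at 2.58, 1.56 and 2.70 in SS mice 22, 23 and the joined 20 and 21, against 3.89 and 3.99 in SI mice 27 and 28. The groups did not overlap there, and Gzma averaged 2.28 ± 0.63 (SD, n = 3) in SS and 3.94 ± 0.07 (n = 2) in SI samples, a log2 difference of -1.66 ± 0.97 (SE, limma adjusted p = 0.480), or 3.16-fold lower in SS. This SE shares its spread with the labelled males, whose SDs were 1.19 in SS and 1.66 in SI mice.

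Gzmb, the caspase-cleaving granzyme made mainly after activation, was dim and well above background on 9 of 14 arrays. It stood at -6.77, -5.91, -3.67 and -6.16 in SS labelled males 1, 2, 3 and 01b, against -6.96, -6.21, -4.61 and -4.26 in SI labelled males 4, 5, 6 and 7. Only 1 of 4 SS and 2 of 4 SI labelled male arrays measured it above background, namely SS 3, SI 6 and SI 7, and the difference of -0.11 ± 0.69 (SE) includes signals at background. In labelled females it stood at -4.98, -5.18 and -4.39 in SS mice 22, 23 and the joined pair, against -3.34 and -3.00 in SI mice 27 and 28. This is the largest log2 difference among the members on that slide, -1.68 ± 0.89 (SE, limma adjusted p = 0.420).

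Prf1, the pore-forming perforin, was the member with the lowest p on the slide of the labelled females. It stood at -2.21, -2.86 and -1.86 in SS labelled females 22, 23 and the joined pair, against -1.11 and -0.68 in SI labelled females 27 and 28, without overlap. The log2 difference was -1.41 ± 0.41 (SE), or 2.66-fold lower in SS (limma adjusted p = 0.103 over all probes). In labelled males it stood at -2.12, -1.99, -1.85 and -2.15 in SS mice 1, 2, 3 and 01b, against -1.41, -2.83, -1.58 and -1.73 in SI mice 4, 5, 6 and 7. Here the SS mice were close together and inside the SI range, with a difference of -0.14 ± 0.32 (SE, limma adjusted p = 0.794). The difference between the slides was 1.27 ± 0.52 (labelled males minus labelled females, SE) (limma adjusted p = 0.395). SI mouse 4 had the highest Prf1 and the lowest Gzma of the labelled males. The deposited log2 table gave -3.03 for Prf1 among labelled females (limma adjusted p = 0.0329), where 0.786% of its probes passed.

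Nkg7 had 2 tested probes, both above background on every array. Its brighter probe stood at -0.79, -0.82, 0.06 and -0.60 in SS labelled males 1, 2, 3 and 01b, against -0.50, -1.50, 0.05 and 0.31 in SI labelled males 4, 5, 6 and 7. The SS and SI mice overlapped, with a difference of -0.13 ± 0.37 (SE). Among labelled females this probe was at 0.66, 0.45 and 1.23 in SS mice 22, 23 and the joined pair, against 1.56 and 1.58 in SI mice, a difference of -0.79 ± 0.48 (SE, limma adjusted p = 0.502). The dimmer probe spread more widely, from -3.83 to -1.20 among SI labelled males, and gave -0.25 ± 0.65 and -1.05 ± 0.84 (SE) on the 2 slides. With the deposited log2 table the sign of the brighter probe turned among labelled males (0.43) and over both slides (0.089).

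Promoter sequences are shown for 5 members whose start sites hold a match to a core bound by T-box or Runx factors, both of which are known to control cytotoxic genes. They are RefSeq sequences of build GRCm38.p6, printed 5′ to 3′ on the gene's strand from 250 bases before the transcription start to 50 bases after it; for Ncr1 the first of 2 listed starts is used. Capitals mark the T-box core AGGTGT or its reverse complement ACACCT, and the Runx core TGTGGT or its reverse complement ACCACA; the longer T-box motif AGGTGTGA contains the core.
Gzma, chr13:113100932-113101231, minus strand: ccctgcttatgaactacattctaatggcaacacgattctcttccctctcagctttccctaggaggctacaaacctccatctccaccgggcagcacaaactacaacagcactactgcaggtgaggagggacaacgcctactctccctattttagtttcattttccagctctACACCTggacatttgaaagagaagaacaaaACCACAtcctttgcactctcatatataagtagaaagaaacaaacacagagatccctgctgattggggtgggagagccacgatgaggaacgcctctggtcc
Gzmb, chr14:56262285-56262584, minus strand: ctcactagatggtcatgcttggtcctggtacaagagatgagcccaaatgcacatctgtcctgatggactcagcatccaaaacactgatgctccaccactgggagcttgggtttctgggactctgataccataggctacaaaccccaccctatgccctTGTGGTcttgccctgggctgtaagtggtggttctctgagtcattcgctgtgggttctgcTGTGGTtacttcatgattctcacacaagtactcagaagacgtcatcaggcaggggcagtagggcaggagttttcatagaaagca
Prf1, chr10:61297586-61297885, plus strand: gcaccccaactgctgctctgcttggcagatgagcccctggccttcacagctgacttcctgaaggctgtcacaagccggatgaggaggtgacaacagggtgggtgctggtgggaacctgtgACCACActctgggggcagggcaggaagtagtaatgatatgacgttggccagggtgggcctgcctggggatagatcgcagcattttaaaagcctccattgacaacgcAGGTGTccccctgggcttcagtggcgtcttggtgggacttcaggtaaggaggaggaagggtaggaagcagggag
Nkg7, chr7:43436888-43437187, plus strand: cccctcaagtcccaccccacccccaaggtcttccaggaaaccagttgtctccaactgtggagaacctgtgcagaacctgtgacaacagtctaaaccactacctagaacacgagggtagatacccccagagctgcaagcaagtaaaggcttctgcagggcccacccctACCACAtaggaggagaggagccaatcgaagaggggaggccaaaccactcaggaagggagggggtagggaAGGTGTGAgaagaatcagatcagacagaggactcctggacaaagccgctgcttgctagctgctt
Ncr1, chr7:4337465-4337764, plus strand: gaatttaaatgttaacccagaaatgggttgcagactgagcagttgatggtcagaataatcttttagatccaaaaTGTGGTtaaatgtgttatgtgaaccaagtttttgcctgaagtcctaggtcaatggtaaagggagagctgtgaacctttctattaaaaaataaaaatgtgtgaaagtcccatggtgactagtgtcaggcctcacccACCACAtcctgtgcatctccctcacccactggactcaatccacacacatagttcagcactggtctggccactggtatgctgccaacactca
Among the 8 members with a promoter in the table, the T-box core was found in 3 (Gzma, Prf1 and Nkg7) and the Runx core in 5, against 13.9% and 16.9% of 27025 promoters of the same length. The longer motif AGGTGTGA, its start 14 bases before the transcription start, was found in Nkg7 alone and in 1.27% of all promoters. A match is a description of the letters and shows no binding.

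Ccl5, a chemokine that recruits T cells and NK cells, showed the division of the labelled male arrays most sharply. It stood at 0.83, 0.72, 2.82 and 0.56 in SS mice 1, 2, 3 and 01b, against 0.49, 0.68, 2.94 and 3.05 in SI mice 4, 5, 6 and 7. No array lay between 0.83 and 2.82, and each stress group had mice on both sides, so that the difference of -0.56 ± 0.66 (SE, limma adjusted p = 0.600) was smaller than the SD of 1.06 in SS and 1.39 in SI. With array weights it was -1.30 (limma adjusted p = 0.0488), a setting under which 59.8% of all probes passed. Among labelled females Ccl5 was at 2.14, 1.76 and 2.90 in SS mice 22, 23 and the joined pair, against 3.66 and 3.69 in SI mice, a difference of -1.41 ± 0.85 (SE, limma adjusted p = 0.491) with no overlap.

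Among the receptors, Ncr1 was well above background on 12 of 14 arrays. It stood at -4.70, -5.62, -3.55 and -4.40 in SS labelled males 1, 2, 3 and 01b, against -5.70, -5.77, -3.28 and -2.77 in SI labelled males 4, 5, 6 and 7. SI mouse 7 was the highest of that slide, and 3 of 4 arrays in each group were above background. Which mouse was lowest cannot be said, because SS 2 and SI 4 were not above background. SS labelled females were closer together: the level was -3.02, -3.61 and -3.09 in mice 22, 23 and the joined pair, against -2.22 and -2.04 in SI mice, a difference of -1.11 ± 0.84 (SE, limma adjusted p = 0.615). Klrd1 had a single probe, well above background on 0 of 14 arrays, and was not tested.

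Klra8 came nearest to a call over both slides, with a log2 difference of -0.92 ± 0.41 (SE, limma adjusted p = 0.248), or 1.90-fold lower in SS. It stood at -4.60, -3.00, -2.93 and -2.98 in SS labelled males 1, 2, 3 and 01b, against -4.23, -2.68, -1.94 and -1.75 in SI labelled males 4, 5, 6 and 7. Among labelled females Klra8 was at -2.48, -3.16 and -2.18 in SS mice 22, 23 and the joined pair, against -1.29 and -1.42 in SI mice, without overlap. In labelled males SS mouse 1 and SI mouse 4 lie apart at the low end, and without SI labelled male 4, the dimmest array, Klra8 passed over both slides (-1.25, limma adjusted p = 0.0227) and among labelled males (-1.25, limma adjusted p = 0.0416), where 13.1% and 34.8% of all probes passed under the same setting. With array weights Klra8 was -1.05 among labelled males (limma adjusted p = 0.0486), where 59.8% of all probes passed. Its second tested probe gave -0.77 ± 0.45 (SE) over both slides, and another was above background on 0 of 14 arrays. Ly49 genes are close copies of one another, so the Klra8 probes may also bind RNA of other family members, and the value is uncertain in this respect.

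Of the transcription factors, Tbx21 ran closely with Gzma over the 13 samples and Eomes less so (r = 0.93 and 0.50 with slide means taken off), a difference that was not tested. Tbx21 stood at -4.14, -4.00, -2.97 and -4.14 in SS labelled males 1, 2, 3 and 01b, against -4.75, -4.37, -3.08 and -2.56 in SI labelled males 4, 5, 6 and 7. In labelled females it stood at -3.32, -3.24 and -2.26 in SS mice 22, 23 and the joined pair, against -1.99 and -1.97 in SI mice, a difference of -0.96 ± 0.61 (SE, limma adjusted p = 0.528). The same 3 labelled male arrays were highest as for Ccl5. Tbx21 was well above background on 13 of 14 arrays, but not on SI labelled male 4. Eomes stood at -4.44, -4.11, -3.57 and -3.97 in SS labelled males 1, 2, 3 and 01b, against -3.77, -4.96, -4.00 and -4.02 in SI labelled males 4, 5, 6 and 7, with a difference of 0.17 ± 0.28 (SE), the only one above 0 among the members. In labelled females Eomes stood at -4.12, -3.95 and -3.79 in SS mice 22, 23 and the joined pair, against -3.63 and -3.24 in SI mice, without overlap, with a difference of -0.52 ± 0.37 (SE, limma adjusted p = 0.577). A second Eomes probe was above background on 0 of 14 arrays.

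Among labelled males most members spread more between mice of 1 group than the typical probe: 7 of 9 in SS and 8 of 9 in SI mice had an SD above the median of all probes. Gzmb was above background on 1 of 4 SS and 2 of 4 SI labelled male arrays and Ncr1 on 3 of 4 in each group. Tbx21 was above background on 4 of 4 SS and 3 of 4 SI labelled male arrays. The SDs of Gzmb and Ncr1, and of Tbx21 in SI mice, thus include signals at background. Among SI labelled males the SD was 1.66 for Gzma, 1.58 for Ncr1, 1.39 for Ccl5 and 1.29 for Gzmb, against a median of 0.60 over all tested probes, and between 92.1% and 96.7% of probes had a lower SD than these 4. Among SS labelled males the SD was 1.35 for Gzmb, 1.19 for Gzma and 1.06 for Ccl5, against a median of 0.39, and at least 95.0% of probes had a lower one. Prf1, at 0.14 in SS labelled males, and Eomes, at 0.36 in SS and 0.53 in SI labelled males, were below that median, and Nkg7 was near it in SS (0.41). Among labelled females the SDs were smaller, 0.16 to 0.63 over 3 SS samples and 0.010 to 0.31 over 2 SI samples. Between members, Pearson's r over the 13 samples, after each slide's mean was taken off, was 0.96 for Gzma with Ccl5, 0.96 for Gzma with Ncr1 and 0.96 for Ccl5 with Tbx21. It was lowest for Klra8 with Eomes, at 0.23. These values share array and scaling and are given as a description.

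The arrays with high members also differed in other ways. The summed T cell markers (11 tested of 12) reached 3.13 in SS labelled male 3, 3.58 in SI labelled male 6 and 2.99 in SI labelled male 7 on the log2 scale, against 1.45 to 1.72 in the other SS and 2.04 to 2.16 in the other SI labelled males. Single T cell markers did not all follow that sum. Cd8a, a chain of the co-receptor of cytotoxic T cells, was above background on those 3 arrays alone, at -4.84, -3.63 and -4.29. Cd8b1, the other chain, was above background on all 14 arrays, at -2.64, -1.51 and -2.61 on the 3 arrays and -1.80 in SI labelled male 4. Cd4, the helper T cell co-receptor, was at -2.10, -1.15 and -2.23 on the 3 arrays and -0.30 in SI labelled male 4. The summed B cell markers were 4.65, 4.75 and 4.86 on the 3 arrays, and 3.19 to 3.52 in the other SS and 3.52 and 4.41 in the other SI labelled males. Lymphocyte sums did not go with the members in the same way among labelled females. The T cell sum was 2.64 and 3.81 in SI mice 27 and 28, against 2.87 to 3.31 on SS arrays. The B cell sum was 3.74 and 4.73 in SI mice 27 and 28, against 4.77 to 5.17 on SS arrays. The summed red cell markers (5 tested of 6, 0 passed in any comparison) were lowest on the 3 arrays, at 9.33, 9.43 and 8.91, against 10.10 to 10.65 in the other SS and 9.73 and 11.31 in the other SI labelled males. Among labelled females they ran from 8.92 to 9.97 in SS and stood at 10.19 and 10.94 in SI mice, where members were high. Array brightness was 0.49, 0.83 and 1.02 in SS labelled male 3, SI labelled male 6 and SI labelled male 7. It was 0.57 in SI labelled male 5 and -0.84 to -0.09 in the other 4 labelled males. On the other slide SI labelled female 28, which had high members, was the dimmest of its slide at -0.84. The SI arrays 6, 7, 27 and 28 were all in column 1, while SS 3 was in column 3. The part of lymphocyte and red cell content, brightness and array place in the members' levels was not tested.

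**Figure D3:**
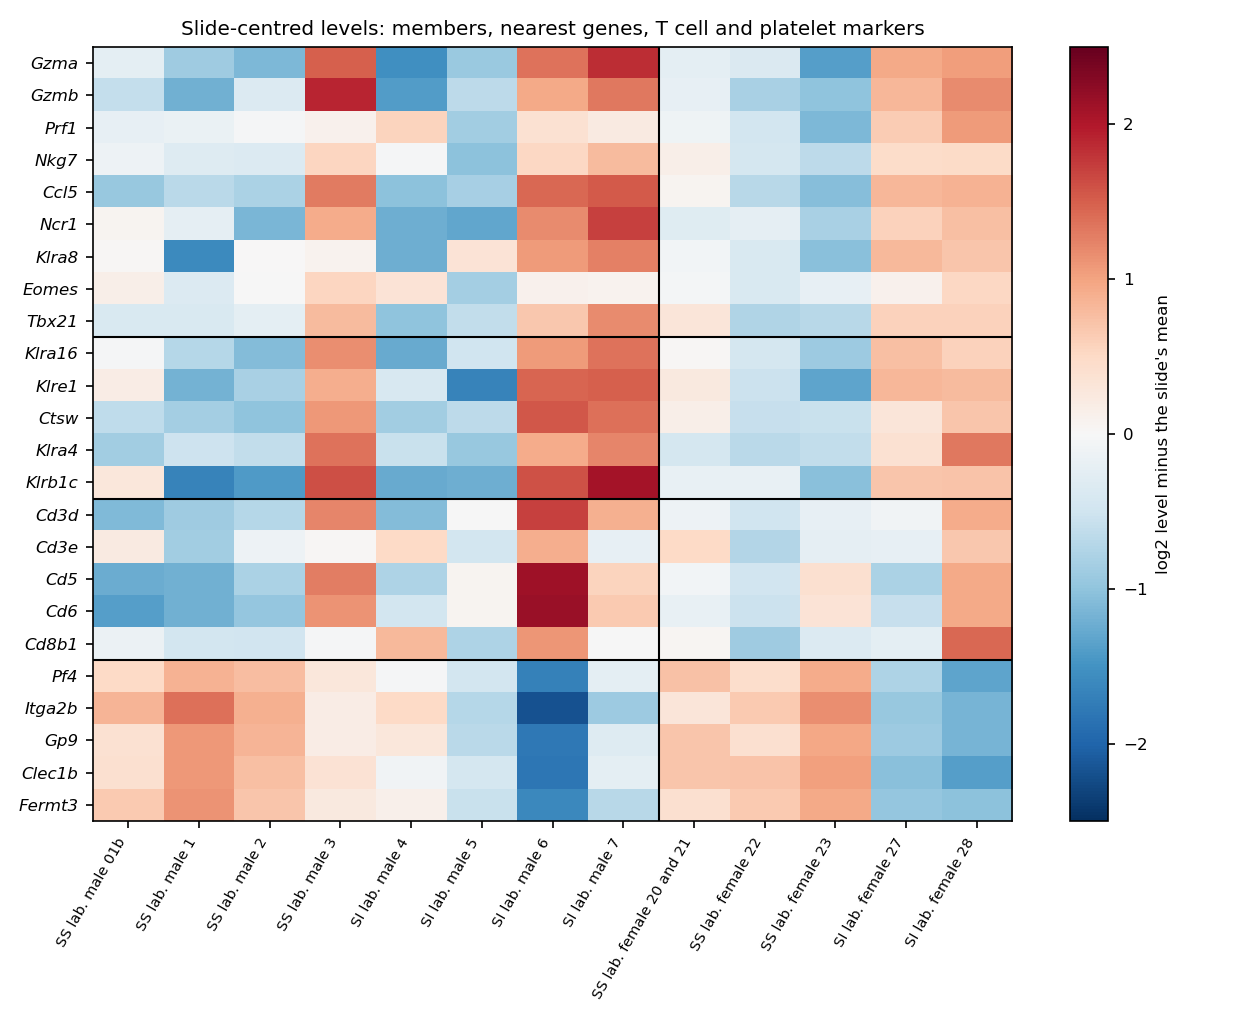
Log2 level minus the mean of its slide (colour, blue low and red high) for the 9 members, the 5 genes most like them, 5 T cell and 5 platelet markers, by sample. Members and nearest genes are above 0 in SS 3, SI 6 and SI 7 among the labelled males and in both SI labelled females. Klra8 in SS 3 (0.09) and Eomes in SI 6 (0.10) and SI 7 (0.08) are only just above 0. Prf1 is highest among the labelled males in SI 4 (0.55). Platelet markers are above 0 in every SS sample and mostly below 0 in SI samples.

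The 5 tested genes whose levels ran most like the mean of the members, over 13 samples with slide means taken off, were Klra16 (Pearson's r = 0.95), Klre1 (0.94), Ctsw (0.93), Klra4 (0.93) and Klrb1c (0.93). Klre1 and Klrb1c are NK cell receptors of the lectin-like family, Klra4 and Klra16 are Ly49 genes, and Ctsw encodes cathepsin W, a protease of cytotoxic lymphocytes. Klrb1c, which encodes the NK1.1 antigen in strains that carry it, was above background in 3 of 8 mice labelled male and 6 of 6 labelled female, Klra4 on 3 of 8 and 4 of 6, and Klre1 on 2 of 8 and 5 of 6, so the r and the differences of these 3 genes rest in part on signals at background. Klra16 was above background on 7 of 8 and 6 of 6 arrays, and Ctsw on all 14. None of the 5 passed over both slides, with log2 differences from -0.62 to -0.81 (limma adjusted p from 0.415 to 0.529).

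Other NK and cytotoxic genes were compared by list. Of 30 listed NK receptors and adaptors 28 were on the array and 19 were tested. Over both slides 3 rose in SS mice, 0 fell, and 12 of 19 had a difference below 0 (median -0.32). Of all probes 6.58% passed as higher and 0.316% as lower, and 62.5% of all tested genes lay below 0 with a median of -0.15, so 0 falls among 19 genes is near the background. Those that rose were Itga2, a collagen receptor chain (1.52 ± 0.26, SE, limma adjusted p = 0.0104), Cd226, an activating adhesion receptor (1.46 ± 0.30, 0.0117), and Crtam, a receptor of activated NK and CD8 T cells (0.95 ± 0.17, 0.0104). The largest difference below 0 was that of Klrb1c (-0.81 ± 0.66). Within slides none passed, and the extremes were Itga2 at 1.46 and the IL-2 and IL-15 receptor chain Il2rb at -0.92 in labelled males, and Cd226 at 1.85 and Klra4 at -1.42 in labelled females.

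Of 21 other granule and death ligand genes 14 were tested. Over both slides 3 rose, 0 fell, and 10 of 14 were below 0 (median -0.33), beside the same 6.58%, 0.316% and 62.5% over all features. Stx11, a syntaxin of granule fusion, rose by 1.49 ± 0.30 (SE, limma adjusted p = 0.0110), Srgn, the proteoglycan core of granules, by 0.83 ± 0.20 (0.0206) and Unc13d, a granule priming factor, by 0.73 ± 0.18 (0.0241). Stx11, Srgn and Unc13d are also known from platelets, as are Itga2 and Cd226, and all 10 platelet markers rose in SS over both slides (1.31 to 1.69), a list already seen to rise in these samples. The summed platelet level ran from 8.63 to 9.45 in SS and 6.65 to 8.63 in SI labelled males, and from 8.75 to 9.08 in SS and 6.96 to 7.32 in SI labelled females. The part of platelet RNA in these 5 rises was not tested. The largest difference below 0 was that of the granzyme Gzmm (-0.78 ± 0.35). Within slides no gene passed, and the extremes were Stx11 at 1.39 and the interferon Ifng at -0.97 for labelled males, and Stx11 at 1.67 and Rab27a, which docks granules, at -1.23 in labelled females.

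Chemokines and homing receptors, 11 tested of 11, and transcription factors and cytokine receptors, 17 tested of 19, had 0 genes that passed in any comparison (lowest limma adjusted p = 0.129 and 0.163). Over both slides their medians were -0.42 and -0.19. The extremes were the integrin chain Itgam (0.75 ± 0.30, SE) and the chemokine Ccl4 (-1.33 ± 0.95), and the factors Ikzf2 (0.69 ± 0.35) and Bhlhe40 (-0.79 ± 0.35). In labelled males the largest were Itgam at 0.94 and Ccl4 at -1.33, and Il15ra at 0.82 and Il18r1 at -0.82. In labelled females they were Itgam at 0.45 and Ccl4 at -1.33, and Ets1 at 0.84 and Nfil3, a factor needed for NK cell development, at -1.24.

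**Figure D4:**
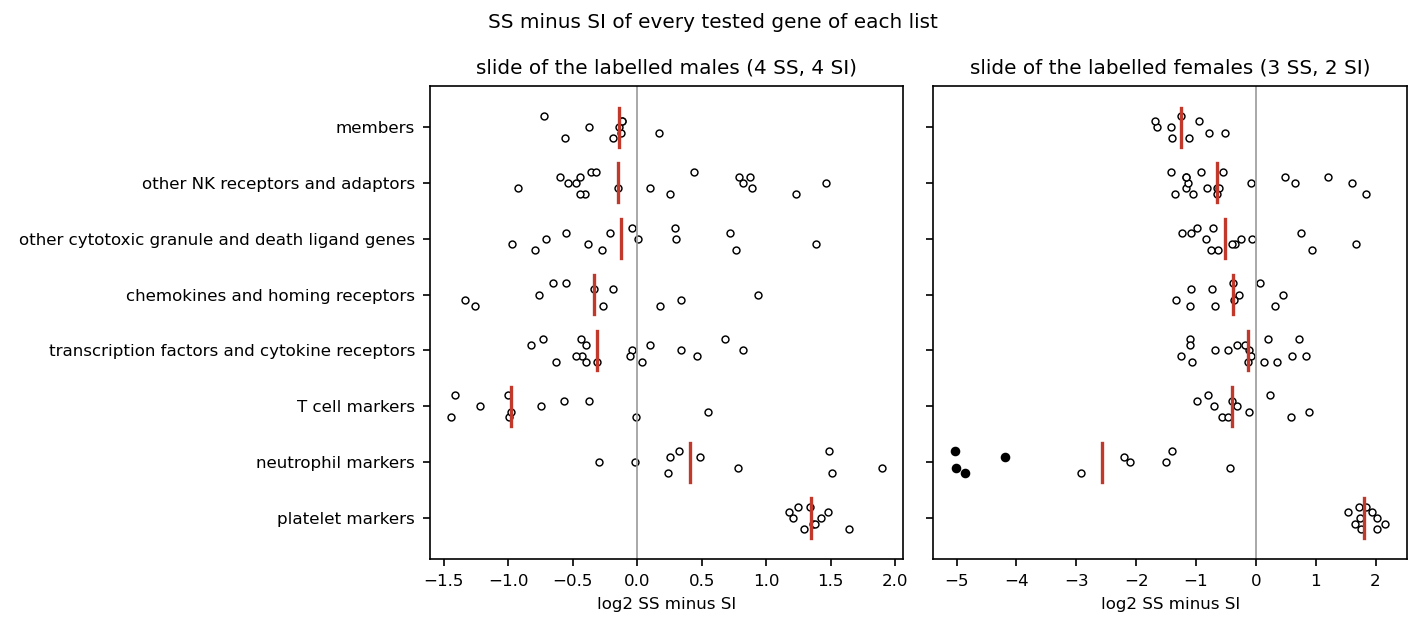
Log2 difference, SS minus SI, of every tested gene of 8 lists (horizontal axis), for labelled males and labelled females, on axes of different width; filled points passed limma's test and red bars are list medians. The members' median is -0.14 for labelled males and -1.25 for labelled females, while neutrophil markers range down to -5.03 in labelled females.

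Markers of other cells were read beside the members' values. The list of NK cell markers is no separate reading, since 4 of its 6 tested genes are members. T cell markers had 0 of 11 genes passing in any comparison (medians -0.66 over both slides, -0.98 among labelled males, -0.39 among labelled females). Monocyte markers had 0 of 6 passing, with medians of -0.41, -0.08 and -0.94 in that order. In labelled females 6 of 6 lay below 0, as did 54.8% of all tested genes. B cell markers had 0 of 7 passing, with medians of -0.004, -0.46 and 0.74. In labelled females 7 of 7 lay above 0, where 54.8% of all tested genes lay below 0. Neutrophil markers in labelled females fell for 4 of 10 genes, with a median of -2.56, where 0.129% of all probes passed as lower. Among labelled males 0 of 10 passed, 8 of 10 were above 0 and the median was 0.41, where 58.3% of all tested genes lay below 0. The difference between slides passed for 3 of 10, against 0.025% of probes. Beside the lower member values in labelled females, the summed neutrophil level ran from 7.27 to 7.58 in SS and from 8.92 to 9.52 in SI mice. Its part in the members' values was not tested. Basophil and mast cell markers, listed because these cells also make granzymes, were too dim to test: 0 of 4 were above background on at least 6 arrays, and Mcpt8, Cpa3 and Ms4a2 were above background on 0 of 14.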

How the data were processed

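The arrays were one-colour Cy3 Agilent mouse arrays. The deposited scanner files hold each spot's processed, median and local background intensity. Per the file headers the scanner software was Agilent Feature Extraction 10.7.3.1, while the submitters' processing notes name version 9.1; background was already subtracted and arrays were not scaled. The deposited files also hold spot flags. The authors' deposited value table is on a log2 scale; how it was normalized is not stated. Spots of a probe were averaged as log2 processed signal, leaving out 3671 control spots of 62976. Outlier spots were left out only where the probe had another spot, and were kept otherwise. Each array was scaled by the 75th percentile over 14504 probes above background on all arrays. Probes above background on at least 6 of 14 arrays, 24013 in all, entered limma 3.58.1 (R 4.3.3): stress with slide as a term, and 4 group means for the within-slide differences. The 4 groups shared their spread in that fit. The software marked 0 spots as saturated. Tests were two-sided, with Benjamini-Hochberg adjustment over all probes and a threshold of 0.05; precision is limited by the number of arrays. The fit on 14 mice was planned; after SS labelled female 20 and 21 were found to agree within spot noise, 13 samples were used. RefSeq names (GRCm38.p6) matched 26425 of 31063 probes with such an identifier; a gene is its brightest tested probe. The array design is on another build, so no probe positions are given. Named companion genes are those that passed and the extremes of each list and comparison. Code was tested on simulated data. The members, lists and settings were chosen with earlier results of these data known.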

Additional observations from a re-analysis of the deposited data

Results flagged for a closer look

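Of 18 sets of 4 mice examined (9 members in SS and in SI labelled males), 3 held a mouse far from the other 3. Chance alone gives about 1 in 20 for separate sets. These sets share the same mice and members that ran together, so the count cannot show an excess over that rate. Ccl5 was 2.82 in SS labelled male 3, and its gap to the next mouse took 0.882 of the group's range. Tbx21 was -2.97 in the same mouse, with 0.879 of the range. Klra8 was -4.60 in SS labelled male 1, with 0.957 of the range.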

How the results depend on the processing

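The count of members that passed stayed at 0 in each comparison under the planned scalings, normexp, both filters, every probe of a member, the array row as a block and with SS labelled female 20 and 21 counted as 2 mice, an alternative chosen after seeing the data. Other settings gave calls. Array weights gave 2 members on the slide of the labelled males, Ccl5 (-1.30) and Klra8 (-1.05), where 59.8% of all probes passed. The deposited log2 table gave 1 on the slide of the labelled females, Prf1 (-3.03, limma adjusted p = 0.0329), where 0.786% of its probes passed. Leaving out 1 mouse gave 0 to 1 members over both slides and in labelled males, the 1 being Klra8 without SI labelled male 4, and 0 in labelled females and for the difference between slides. Without SI labelled male 4, 13.1% of all probes passed over both slides and 34.8% in labelled males. Directions of differences that did not pass turned in some cases. Over both slides Eomes was 0.0074 with normexp, Nkg7 was 0.089 in the deposited values, and array weights gave 0.23 for Prf1, 0.34 for Nkg7, 0.26 for Ncr1 and 0.49 for Eomes. In labelled males Eomes was -0.011 with the percentile of all probes and -0.080 with quantile scaling, normexp gave 0.19 for Gzmb and 0.059 for Tbx21, and the deposited values gave 0.43 for Nkg7. Without single mice the labelled male differences ran from -0.94 to 0.18 for Gzma, -0.77 to 0.30 for Gzmb, -0.46 to 0.015 for Prf1, -0.49 to 0.11 for Nkg7, -0.65 to 0.35 for Ncr1, -0.091 to 0.31 for Eomes and -0.47 to 0.26 for Tbx21, and Eomes over both slides from -0.27 to 0.033. In labelled females no member turned under any setting. Counts over all probes moved more. Over both slides 1657 passed, against 979 with normexp, 739 without the filter, 9913 with array weights and 1134 to 3138 without 1 mouse, the highest without SI labelled male 4. In labelled males 0 passed, against 2 with quantile scaling, 105 in the deposited table, 14367 with array weights and 0 to 8351 without 1 mouse, the highest without SI labelled male 4. In labelled females 66 passed, against 618 with the percentile of all probes, 137 with quantile scaling, 16 with normexp, 7 without the filter, 620 with probes above background on all arrays, 170 in the deposited table, 23 with the array row, 1356 with array weights, 960 with 20 and 21 as 2 mice, 6 without both of them and 3 to 1316 without 1 mouse, the highest without SI labelled male 4. In labelled females 1012 passed without SI labelled male 6. Neither SI labelled male 4 nor SI labelled male 6 is in that comparison. The tests of labelled females share their spread with the labelled males, so leaving out a labelled male changes them too. How much of each change in counts came from this was not tested. No paired analysis was possible because the groups share no mouse number. Gzmb, near background on 5 arrays, and the 2 SI labelled females limit the precision.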

Other observations

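The genes ranked 6 to 12 by likeness to the mean of the members, chosen after their values were seen, were Fasl (r = 0.93), Cst7 (0.93), Samd3 (0.91), Klrg1 (0.91), Klrb1a (0.90), Sytl3 (0.90) and Ada (0.89), over the 13 samples with slide means taken off. Fasl is a death ligand, Cst7 a cystatin that controls granule proteases, Klrg1 an inhibitory receptor of mature NK cells and Ada adenosine deaminase. None passed over both slides, with log2 differences, SS minus SI, from -0.76 for Klrb1a to -0.25 for Klrg1. Klra1, another Ly49 gene, differed from Klra8 in sign, with 0.73 ± 0.34 (SE, limma adjusted p = 0.275); that the 2 genes differ was not tested.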
